A study of Oniscidea with 6 samples.

Results

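Histone genes and the genes of chromatin-modifying enzymes were chosen by name alone, without any measured value, as every gene whose mouse symbol begins with the stem of a histone (Hist, H1f, H2af, H3f3) or of an enzyme family (Hdac, Sirt, Kdm, Kmt, Setd, Smarc, Chd). They are 159 of the 24421 genes in the table, namely 84 histone genes and 75 genes of enzymes and remodelling subunits. A pseudogene of H2B, a pseudogene of Smarca5 and an antisense RNA of Chd3 are among them. Counting by strand is not stated, so reads of Chd3 and its antisense partner cannot be told apart.

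Histones are the proteins that DNA is wound around, and the enzymes described here remove or add chemical marks on them or shift them along DNA. Histones H2A, H2B, H3 and H4 form the core of the nucleosome and H1 binds the linker DNA. Cluster histone genes, named Hist here, are transcribed mainly during DNA replication, and in animals most of their mRNAs end in a stem-loop instead of a poly(A) tail. Replacement variants such as H3.3 are made throughout the cell cycle from polyadenylated mRNA. Histone deacetylases (Hdac) and sirtuins (Sirt) remove acetyl groups, Kmt and Setd enzymes add methyl groups, Kdm enzymes remove them, and Smarc and Chd proteins use ATP to move nucleosomes or belong to complexes that do.

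The samples were poly(A) RNA of untreated woodlice (Oniscidea, terrestrial isopod crustaceans), 3 labelled rolling and 3 labelled stretching, with both groups described as fresh tissue. The labels give neither species, strain, sex, age nor tissue, and no label ties each sample to an animal of its own, so a p-value covers the spread among these 6 samples alone, and that spread may be technical. Each symbol is only the mouse name under which woodlouse reads were counted, and a role given here is the role of the mouse gene. Paralogues named here are likewise those of the mouse. How reads were matched to mouse sequence is not stated, so values under related symbols cannot be assigned to separate woodlouse genes. Which chromatin genes differ between the labelled groups is the question that the comparison addresses. A difference of species, animal or preparation could not be told apart from one of behaviour.

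Counted reads ranged from 403971 to 1122154 per library. The histone and enzyme genes together took 1682 to 3576 of them, or 0.255% to 0.669% of a library (exact binomial 95% intervals of 0.246% to 0.265% and of 0.646% to 0.693% for these extremes, which cover counting error only). A level is given as the normalised read count, which is the number of reads divided by one size factor per sample and is not corrected for gene length. In these units 3 reads of a library are worth between 1.58 and 3.67. The libraries differed in composition: the 20 features with the most reads held 44.9% of rolling 1 and 81.6% of rolling 3, and the ribosomal RNA precursor Rn45s alone held 34.7% of the reads of rolling 3. In whole-tissue RNA, fewer cells of a type and less RNA per cell cannot be told apart.

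Histone genes were seldom hit by reads, and enzyme genes often. No read was counted on 49 of the 84 histone genes (58.3%), against 8 of the 75 enzyme and remodeller genes (10.7%) and 25.2% of all genes in the table. The share was largest in H2A, with 22 of 28 genes without a read, and in H2B, with 13 of 19. All members of the Kmt, Setd and Chd families had reads. Among the histones, 41 of 68 cluster genes and 8 of 16 variant genes had none, and the widely used variants H2afz, H2afx and H2afv were among those variants. Reads were not corrected for gene length, and poly(A) RNA mostly leaves out mRNAs that end in a stem-loop. Close copies may also share reads, so a gene without a read need not be unexpressed. Of the 102 members with reads, 23 had them in rolling samples only and 14 in stretching samples only, where the shares over all genes with reads were 20.7% and 18.1%. The rolling libraries together held more counted reads than the stretching libraries.

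**Figure D1:**
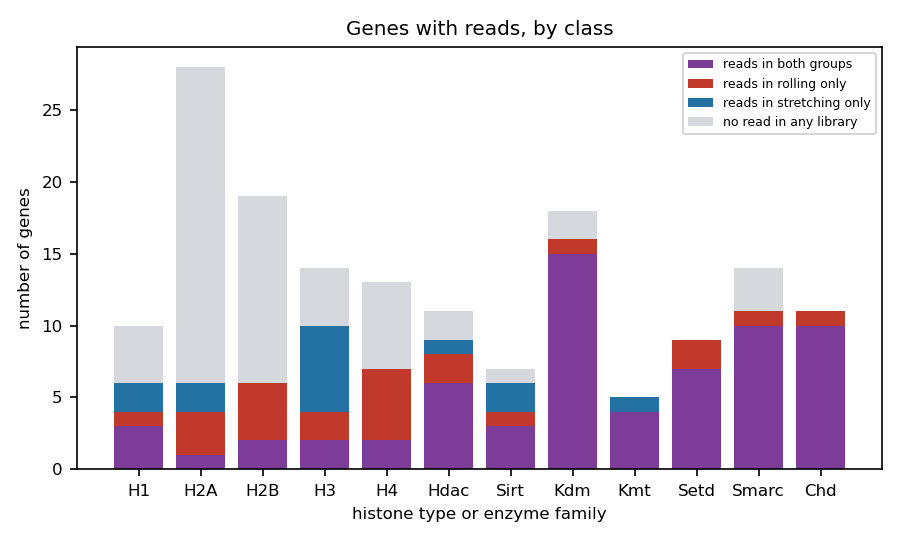
Number of genes (vertical axis) in each histone type or enzyme family (horizontal axis), split by whether reads were found in both groups, in one group or in none. Of the H2A genes 22 of 28 had no read, whereas all Kmt, Setd and Chd genes had reads.

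Reads were too few to test most members. Genes were tested if they averaged 10 or more normalised reads over the 6 samples, as 20 members did, 2 histones and 18 enzymes or remodelling subunits. Another 82 members had reads under that level, 33 of them histones, and for these the reads themselves are given, with no test. By limma with Benjamini-Hochberg adjustment over all tested genes, 7 of the 20 rose in rolling and 4 fell, so 11 were called, where 75.2% of all 2948 tested genes were. By direction, 37.8% of all tested genes rose and 37.4% fell. Over these genes, log2 values correlated at 0.9 to 0.932 between samples of one group. Between samples of different groups they correlated at -0.342 to -0.308 (Pearson). Only 845 of the 2948 genes averaged 10 or more in both groups. A filter on the overall mean keeps genes that are high in one group alone, which lowers the correlation between groups. These values therefore cannot show how the groups correlate over all genes. The groups did not overlap for 12 of the 20, against 78.7% of all tested genes. The median log2 fold change, always rolling minus stretching, was 0.93 for the 20 members and 0.10 for all tested genes, and the median size regardless of sign was 1.57 and 2.82. With reads scaled to library totals, 4 members rose and 4 fell, where 67.1% of all tested genes were called. Without rolling 3, the library with the most Rn45s, 11 members were called, 7 rising and 4 falling, where 73.7% of all tested genes were. Of these 11, 9 were among the 11 called with all samples, as Smarcc2 and Smarca2 were lost and Chd5 and Smarca4 gained. On the recovered reads, edgeR and DESeq2 called 11 members each, where they called 76.1% and 74.4% of all tested genes. Without the filter, limma called 29 of the 102 members with reads, where it called 31.6% of all genes with reads.

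The filter itself bears on these counts. In 10 of the 20 tested members the mean of one group was under 10, so that they passed through the other group, and 9 of these were called. Of the 10 with both group means at or above 10, Chd9 and Kmt2d were called, and of the 845 tested genes with both means at that level, 341 were (40.4%). The count of called members leaves out the histones and enzymes with too few reads to test.

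Histone H3 was the one histone type with tested genes, and its 2 tested genes changed in opposite directions. Hist1h3a, a cluster gene of the replication-dependent H3.1, had no read in any rolling library and normalised read counts of 302, 396 and 440 in stretching 1, 2 and 3. Its stretching values rested on 1062 reads, and against a floor of 3 reads over the rolling group it was at least 455-fold lower there. H3f3b, which encodes the replacement variant H3.3, went the other way, with 46.9, 18.4 and 35.9 in rolling 1, 2 and 3 and 0, 0 and 1.11 in stretching. Its 137 reads against 1 correspond to a ratio of 107 (95% counting interval 18.8 to 4243). Both were called by limma, with adjusted p of 3.2e-07 for Hist1h3a and 2.9e-05 for H3f3b. The groups are fully apart for both genes.

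Within H3, Hist1h3a thus held 98.4% of the 1079 H3 reads of the stretching group (exact binomial 95% interval 97.5% to 99.1%), and H3f3b held 95.8% of the 143 of the rolling group (91.1% to 98.4%). These are shares of reads and not of transcripts. The other 12 H3 genes had at most 6 reads in either group, 6 for Hist1h3b in stretching and 4 for Hist2h3b in rolling. H3 genes are close copies of each other, and it is not stated how reads that match several copies were counted, so which copy carried the reads is uncertain. A split of reads among H3 copies would leave their sum as it is, but a loss of reads that match several copies would not. The sum was 47.4, 19.6 and 40.2 in rolling 1 to 3 and 306, 399 and 452 in stretching, or 35.7 ± 14.5 against 385 ± 74.1 (SD, n = 3), which is 10.8-fold higher in stretching.

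H1, the linker histone, showed few reads and most of them in stretching. The H1 genes had 12 reads in rolling and 44 in stretching, with summed normalised read counts of 3.69, 2.45 and 3.26 against 14.4, 5.66 and 26.6. The groups do not overlap. Hist1h1d had 2 and 24 reads (ratio 15.4 in favour of stretching, 95% counting interval 3.83 to 135), but none of them lay in stretching 2. Hist1h1a had 1 and 16 reads (ratio 20.6, 3.19 to 862), with reads in all 3 stretching libraries. Both were lower in rolling in the authors' deposited table, with adjusted p of 0.049 and 0.036. H1f0, a variant found in non-dividing cells of mammals, had 7 reads in rolling and 1 in stretching.

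H2A reads were equally many in the groups and came from different genes. Both groups had 29 reads, and the summed levels of 8.77 ± 4.07 in rolling and 10.1 ± 3.98 in stretching (SD, n = 3) overlap. In stretching 26 of the 29 reads lay on the cluster genes Hist2h2ab and Hist1h2ae, with 16 and 10 reads, and both genes had none in rolling. In rolling the variants H2afj and H2afy2 had 11 and 10 reads and none in stretching. The lower bounds on these folds are 6.85 for Hist2h2ab, 4.28 for Hist1h2ae, 2.85 for H2afj and 2.60 for H2afy2, the last of which rested on rolling 1 and 2 alone. H2afy2 encodes a macroH2A, a variant with a large extra domain.

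H2B leaned towards rolling and H4 towards neither group. Hist1h2be, a cluster gene of H2B, stood at 14.8, 20.8 and 9.78 in rolling and at 3.83, 4.53 and 4.43 in stretching, with 54 reads against 12 (ratio 3.50, 95% counting interval 1.85 to 7.20). Its mean of 9.69 lies just under the level for testing. It was the only H2B gene with over 10 reads in the rolling group, and all H2B genes together reached 18.0 ± 2.46 in rolling against 7.98 ± 4.18 (SD, n = 3). Without Hist1h2be the H2B sums were 2.88 ± 3.33 and 3.72 ± 3.89 and overlapped. H4 had 26 reads in rolling and 13 in stretching, of which Hist2h4 held 15 and 9, and its sums of 6.80 ± 4.06 and 4.73 ± 2.92 overlapped.

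**Figure D2:**
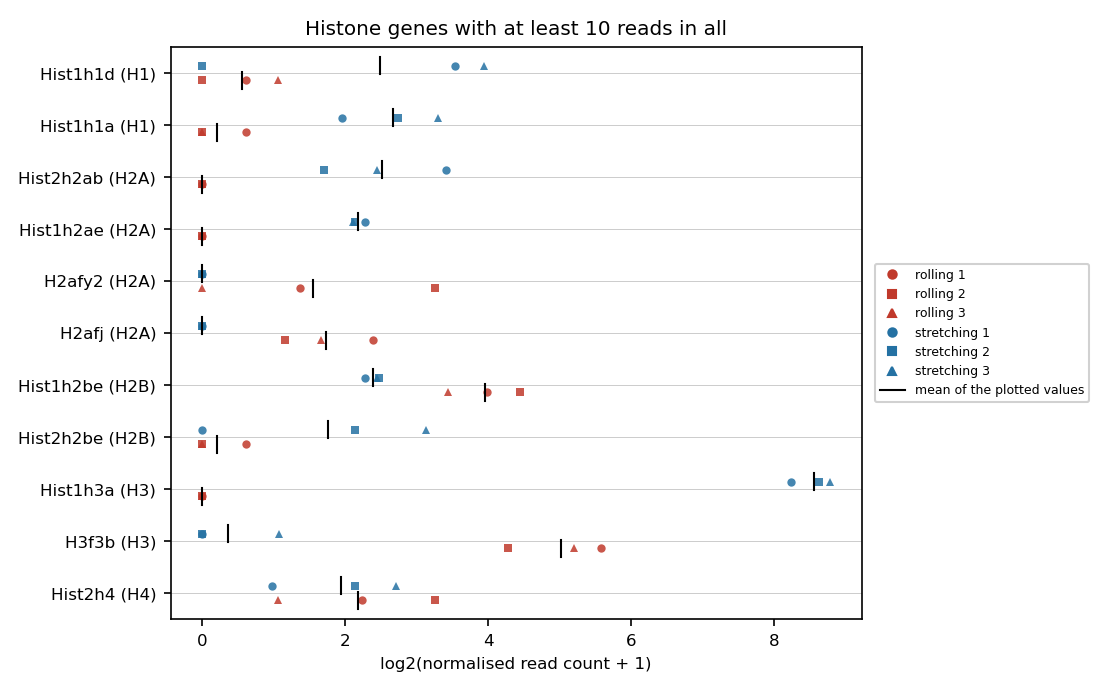
Level of each histone gene with at least 10 reads in all, as log2(normalised read count + 1) on the horizontal axis, with one point per sample and a black tick at the mean of the 3 plotted values. Hist1h3a has no read in rolling and H3f3b at most 1.11 normalised reads in stretching. In rolling, Hist1h2be reaches into the range of H3f3b, and the remaining genes stay below the rolling values of H3f3b, with few reads.

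Split by origin, the sum of the cluster histone genes was lower in rolling and that of the variant genes higher. Cluster mRNAs that end in a stem-loop are mostly left out of poly(A) RNA. The cluster genes summed to 28.5 ± 3.95 in rolling and 422 ± 82.9 in stretching (SD, n = 3), and the variants to 43.9 ± 11.7 and 2.17 ± 2.96. Hist1h3a made up nearly all of the first difference. Without it the cluster genes stood at 26.4, 33.1 and 26.1 in rolling and 36.4, 26.0 and 64.3 in stretching, and the groups overlapped. Without H3f3b the 15 remaining variants stood at 9.49, 14.7 and 6.52 against 0.958, 0 and 4.43, and the groups stayed apart, on 36 reads against 5.

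Genes of DNA replication, the process that cluster histones serve, changed in both directions. Of 41 such genes 8 were tested, of which 4 fell and 1 rose, so that 5 of 8 were called where 75.2% of all tested genes were. All 5 had a mean under 10 in one group and passed the filter through the other, and the 2 with both means at that level, Lig1 and Mcm2, were not called. Pcna, the sliding clamp of the replication fork, stood at 0.527, 0 and 1.09 in rolling and 22.04, 27.2 and 23.3 in stretching. Tyms, which makes thymidylate, had no read in rolling and 32.6, 23.8 and 23.3 in stretching. Mcm6, a subunit of the replicative helicase, rose by 2.53 on the log2 scale (limma, SE 0.53, adjusted p 0.0019). Of 30 genes for histone chaperones and histone RNA processing, 29 were in the table and 7 were tested, 3 rising and 4 falling, and 5 of these 7 passed the filter through one group only. The histone chaperone Anp32e stood at 4.22, 1.22 and 4.35 in rolling and 27.8, 20.4 and 26.6 in stretching. Among the called genes was also Npat, the activator of cluster histone transcription, which stood at 29.0, 17.1 and 38.0 in rolling and 2.87, 4.53 and 5.54 in stretching and thus had a direction opposite to that of Hist1h3a. Asf1a, a chaperone that hands H3 and H4 to the assembly machinery, fell by 2.55 on the log2 scale (limma, SE 0.50, adjusted p 0.0013), and the nucleolar chaperone Ncl rose by 3.61 (limma, SE 0.35, adjusted p 1.4e-05). The part of replication in the histone values was not tested.

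Each class as a whole can be set side by side by its summed level. The sums of Hdac, Chd, Smarc and H2B genes were higher in every rolling library than in any stretching library, those of H1, H3, Kdm and Kmt genes were lower, and those of H2A, H4, Sirt and Setd genes overlapped. In 6 of these 8 classes the difference ended or turned once the gene with the most reads was left out, and in H1 and Smarc it did not. Without Hist1h3a, for example, the H3 sum was 5.87-fold higher in rolling.

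**Figure D3:**
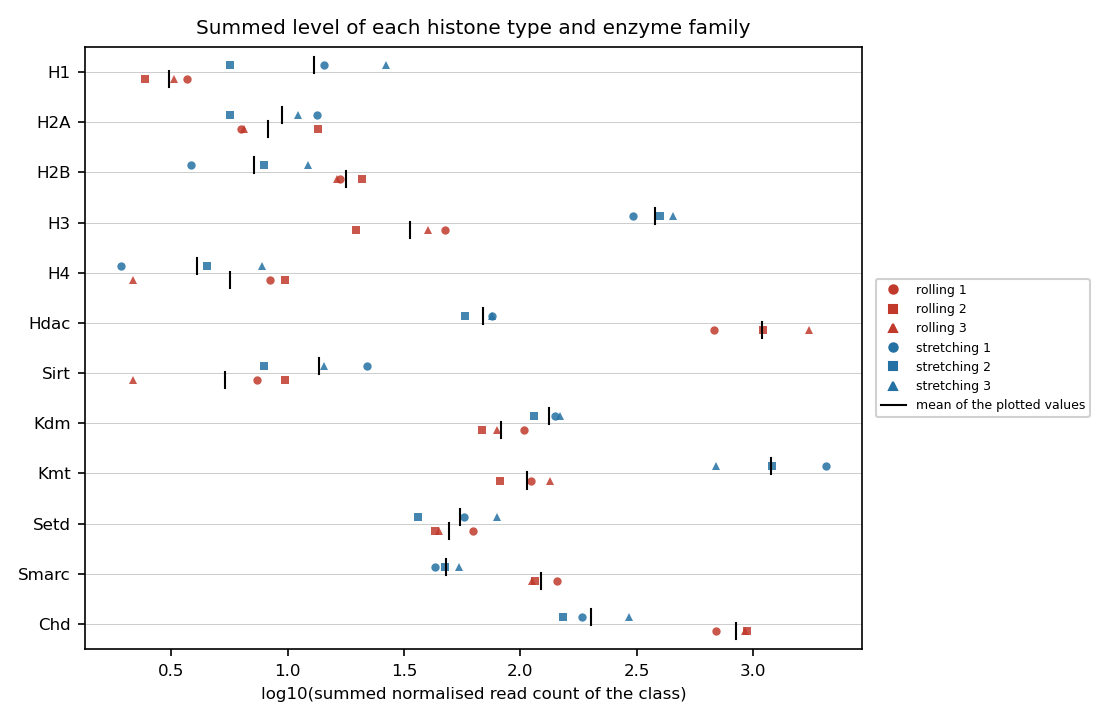
Summed normalised read count of each histone type and enzyme family, on a log10 scale on the horizontal axis, with one point per sample and a black tick at the mean of the 3 plotted values. Hdac, Chd, Smarc and H2B lie to the right in rolling, H1, H3, Kdm and Kmt in stretching.

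The deacetylases changed in opposite directions. Hdac5, a class IIa deacetylase that shuttles between nucleus and cytoplasm and holds back muscle genes through MEF2 in mice, stood at 655, 1054 and 1701 in rolling 1, 2 and 3 and at 3.83, 2.26 and 9.97 in stretching. It rose by 7.57 on the log2 scale (limma, SE 0.53, adjusted p 2.8e-06). Every rolling library lies far above every stretching library. Hdac2, a class I deacetylase of nuclear corepressor complexes, stood at 6.85, 9.79 and 11.95 in rolling and at 42.2, 19.2 and 27.7 in stretching. It fell by 1.504 on the log2 scale (limma, SE 0.43, adjusted p 0.0099), again without overlap. Hdac9, the class IIa relative of Hdac5, averaged 18.2 ± 7.07 and 23.9 ± 3.55 (SD, n = 3), and the 95% interval of its log2 fold change ran from -1.37 to 0.49.

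Hdac5 held 96.7% of the 3793 Hdac reads in rolling (exact binomial 95% interval 96.1% to 97.3%). Its reads were 95.6 to 142 times those of Hdac2 in the rolling libraries and 0.091 to 0.36 times in the stretching libraries. This contrast does not depend on the scaling between samples. But both genes were called in opposite directions in the same data, so it is no further support for either call. With Hdac5 left out, a choice made after the values were seen, the other deacetylases summed to 37.8 ± 11.3 in rolling and 64.2 ± 8.25 in stretching (SD, n = 3) without overlap, the reverse of the family's sum of 1174 ± 537 and 69.6 ± 10.3. Hdac6, a deacetylase of tubulin, was under the level for testing with 1.05, 3.67 and 3.26 in rolling and 6.71, 6.79 and 7.75 in stretching. Hdac3 had 13 reads in rolling and 1 in stretching, and Hdac7 and Hdac8 had none.

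Sirtuins, which need NAD as a cofactor, had 24 reads in rolling and 43 in stretching and none reached the level for testing. Sirt6, a nuclear sirtuin, had 1 read against 25 (ratio 32.1 in favour of stretching, 95% counting interval 5.26 to 1318), with levels of 13.4, 3.40 and 8.86 in stretching. Sirt1 had 3 and 15. Sirt3, the main mitochondrial deacetylase, leaned the other way with 16 reads against 1 (ratio 12.5, 1.94 to 522). Sirt6 and Sirt3 thus leaned towards different groups, on few reads. In the authors' deposited table Sirt6 was lower in rolling (log2 fold change -4.73, adjusted p 0.010), and neither Sirt1 nor Sirt3 passed the threshold.

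The methyltransferases of the Kmt family write methyl marks on H3 at active promoters and enhancers. Kmt2d, a large enhancer methyltransferase, stood at 66.9, 35.5 and 32.6 in rolling 1, 2 and 3 and at 2034, 1182 and 678 in stretching. It fell by 4.75 on the log2 scale (limma, SE 0.49, adjusted p 2.2e-05). Its close paralogue Kmt2c, with 25.8, 15.9 and 41.3 in rolling and 5.75, 4.53 and 4.43 in stretching, rose by 2.19 (limma, SE 0.45, adjusted p 0.0016). Neither gene overlaps between the groups. Within a library the reads of Kmt2c were 0.386 to 1.27 times those of Kmt2d in rolling and 0.0028 to 0.0065 times in stretching. As both genes were called in opposite directions in the same data, this ratio is no further support for either call.

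Kmt2a, which in flies and mice maintains the expression of Hox genes, was not called. It stood at 15.8, 25.7 and 57.6 in rolling and 18.2, 15.9 and 6.65 in stretching (log2 fold change 1.14, 95% interval -0.13 to 2.41). Rolling 1 lies among the stretching values, and without it the gene was called (log2 fold change 1.55; limma adjusted p 0.048). Of the Setd genes only Setd1a, which methylates H3 at active promoters, was tested, and with 30.4 ± 13.1 against 38.8 ± 17.0 (SD, n = 3) its groups overlapped (log2 fold change -0.33, 95% interval -1.37 to 0.71). It held 64.6% of the Setd reads in rolling and 67.1% in stretching. Setd2, which methylates H3 along transcribed genes, was under the level for testing with 3 reads in rolling and 13 in stretching, and Setd4 had 15 and 0.

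Demethylases were 1.60-fold lower in rolling as a family and differed more in single genes. Kdm6a, which removes the repressive mark that Polycomb lays on H3 and which sits in the same complex as Kmt2c and Kmt2d in mammals, stood at 11.6, 4.90 and 7.61 in rolling and 54.6, 56.6 and 70.9 in stretching. It fell by 2.83 on the log2 scale (limma, SE 0.40, adjusted p 0.00017), without overlap. Kdm3a, which strips a mark of silent chromatin, stood at 21.1, 20.8 and 21.7 in rolling and 14.4, 18.1 and 6.65 in stretching. Its groups do not overlap either, but it was not called (log2 fold change 0.76, 95% interval -0.23 to 1.75). Kdm1a, a flavin-dependent demethylase of corepressor complexes, had 48 and 1 reads in the groups (ratio 37.4, 95% counting interval 6.39 to 1506), with rolling levels of 15.8, 12.2 and 8.69. Kdm4c leaned the other way with 6 and 39 reads (ratio 8.35 in favour of stretching, 3.51 to 24.1).

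Without Kdm6a, the demethylases summed to 75.9 ± 14.7 in rolling and 73.5 ± 14.5 in stretching (SD, n = 3). The family's lower sum in rolling, 83.9 ± 18.1 against 134 ± 17.5, therefore lay in that gene. Kdm5a and Kdm5b, which remove the methyl mark of active promoters, had 26 and 31 reads in rolling and 26 and 28 in stretching.

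The summed level of the Smarc family, subunits of the SWI/SNF remodeller and its relatives, leaned towards rolling, though single genes did not all do so. Smarcc2, a scaffold subunit, stood at 23.7, 24.5 and 40.2 in rolling and 17.2, 5.66 and 3.32 in stretching and rose by 1.88 on the log2 scale (limma, SE 0.56, adjusted p 0.013). Smarca2, one of its alternative ATPases, stood at 16.3, 13.5 and 17.4 against 4.79, 5.66 and 11.1 and rose by 1.10 (limma, SE 0.43, adjusted p 0.041). The groups do not overlap for either gene, but both calls are weak. That of Smarca2 was lost without rolling 1, 2 or 3 or stretching 1 or 2 and under 7 other settings, with adjusted p between 0.050 and 0.265 where it was lost. That of Smarcc2 was lost without rolling 3, stretching 2 or stretching 3 and with scaling to library totals (adjusted p 0.052 to 0.059), and its value was 2.46 without stretching 1.

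Smarca4, the other ATPase, stood at 40.1, 18.4 and 2.17 in rolling and 3.83, 1.13 and 6.65 in stretching. Rolling 3 lies among the stretching values. It was not called (log2 fold change 1.67, 95% interval -0.36 to 3.70), but it was without rolling 3 (2.72, limma adjusted p 0.0075), and by edgeR, DESeq2 and a fit with the replicate number as a block, with adjusted p of 0.030, 0.022 and 0.047.

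Among the members of the family under the level for testing, Smarcal1, an annealing helicase, had 61 reads against 2 (ratio 23.7, 95% counting interval 6.30 to 201). Its mean of 9.59 is just under that level. Smarcc1, the paralogue of Smarcc2, had 59 and 10 reads, Smarca1, an ATPase of the ISWI type, 40 and 4, and Smarce1, a core subunit, 12 and 0. Smarca5, the other ISWI ATPase, had 25 and 36, and its levels overlapped. Those of Smarcad1, with 12 and 15 reads, and of the Smarca5 pseudogene, with 7 and 7, overlapped as well. Smarcd1 had 1 read in rolling and 5 in stretching and was lower in rolling without overlap. The core subunit Smarcb1 and the subunits Smarcd2 and Smarcd3 had no read. Over the family the sums were 144, 115 and 112 in rolling and 43.1, 47.6 and 54.3 in stretching, 2.56-fold higher in rolling, and still 2.38-fold higher without Smarcc2, the gene with the most reads.

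Most Chd proteins are remodellers with a chromodomain, a fold that in some proteins binds methylated histone tails. Chd9 stood at 495, 630.5 and 717 in rolling and at 29.7, 34.0 and 38.8 in stretching and rose by 4.12 on the log2 scale (limma, SE 0.33, adjusted p 5.1e-06). The libraries of each group lie close together and the groups far apart. Chd1, which binds the methyl mark of active promoters, stood at 29.0, 44.1 and 22.8 in rolling and 8.62, 9.06 and 9.97 in stretching and rose by 1.64 (limma, SE 0.39, adjusted p 0.0038), a call that was lost with scaling to library totals (adjusted p 0.083).

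Of the relatives of Chd9 in the same subfamily, Chd7 and Chd6 were not called and Chd8 was under the level for testing. Chd7 averaged 90.4 ± 31.1 among rolling and 100.01 ± 45.4 among stretching samples (SD, n = 3), and Chd6 19.8 ± 4.93 and 19.2 ± 4.97. Their log2 fold changes had 95% intervals of -1.07 to 0.86 and -0.85 to 0.94, both far below the change of Chd9. Within a library, Chd9 had 5 to 9.43 times the reads of Chd7 in rolling and 0.256 to 0.509 times in stretching. Chd8 leaned the same way as Chd9 on 48 and 20 reads (ratio 1.87, 95% counting interval 1.09 to 3.32). Its groups overlapped. Chd2, the paralogue of Chd1, varied too much within groups for a call, with 4.74, 42.8 and 61.9 in rolling and 6.71, 4.53 and 35.5 in stretching. Chd5, with 37.9, 49.0 and 18.5 against 25.9, 13.6 and 21.1, was not called (log2 fold change 0.71, 95% interval -0.33 to 1.75), but was without rolling 3 (1.10, limma adjusted p 0.042). Chd3 and Chd4, ATPases of the NuRD deacetylase complex, had 21 and 27 reads in rolling and 1 and 3 in stretching.

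**Figure D4:**
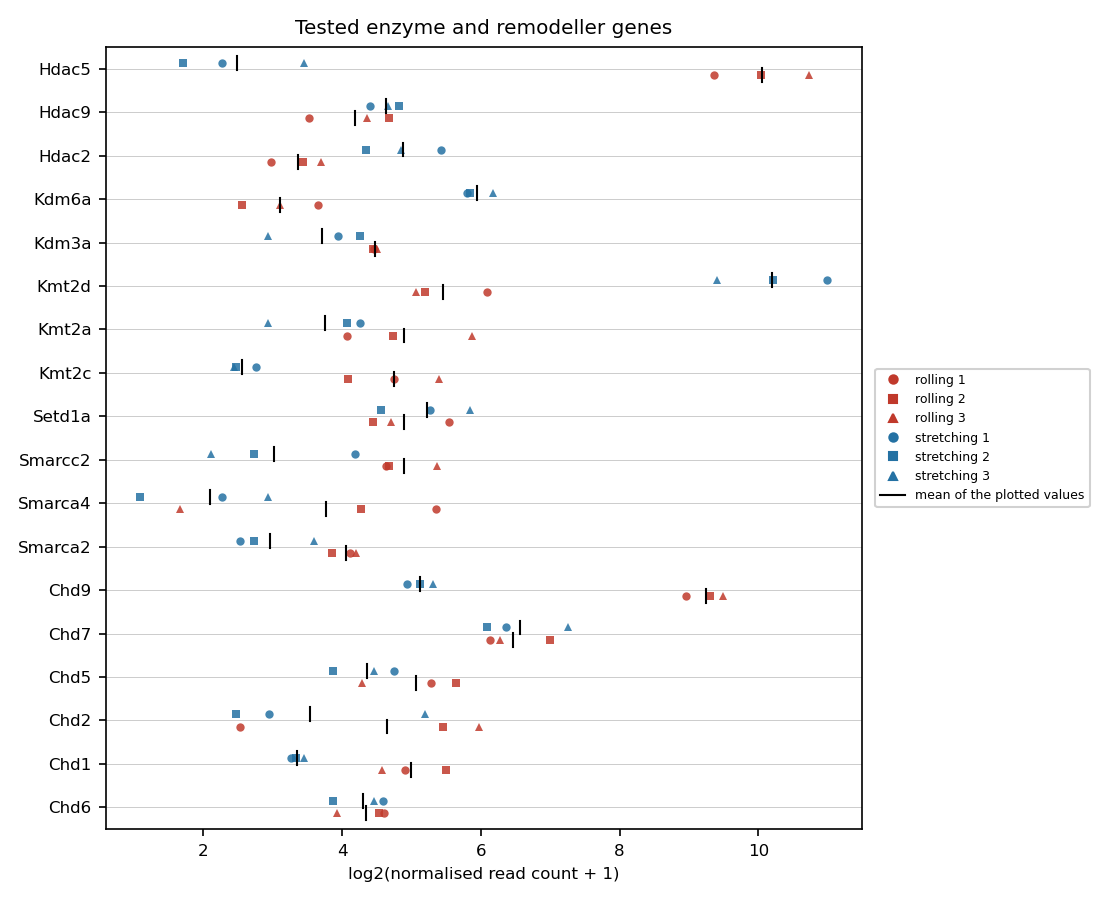
Level of the 18 tested enzyme and remodeller genes as log2(normalised read count + 1) on the horizontal axis, with one point per sample and a black tick at the mean of the 3 plotted values. Hdac5 and Chd9 lie far to the right in rolling and Kmt2d in stretching, while Chd6, Chd7 and Setd1a overlap.

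Genes that differ between the groups by their reads alone were looked for among all members. A count of 30 or more reads in one group beside 3 or fewer in the other was found for H3f3b, Kdm1a and Smarcal1 in rolling and for Hist1h3a in stretching, 4 of the 102 members with reads, where 8.22% of all genes with reads met this. Among the 82 members with reads under the level for testing, the groups did not overlap for 24, with 12 higher and 12 lower in rolling, against 30.5% of all such genes. In the authors' deposited table, 10 members were higher and 9 lower in rolling among the 65 with an adjusted p, and 37.2% of all genes with an adjusted p were called there. The 19 were the called members named here other than Smarca2, together with Hist1h1d, Hist1h1a, Hist2h2ab, Sirt6, Kdm4c, Kdm1a, Smarcal1, Smarcc1 and Smarca1.

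**Figure D5:**
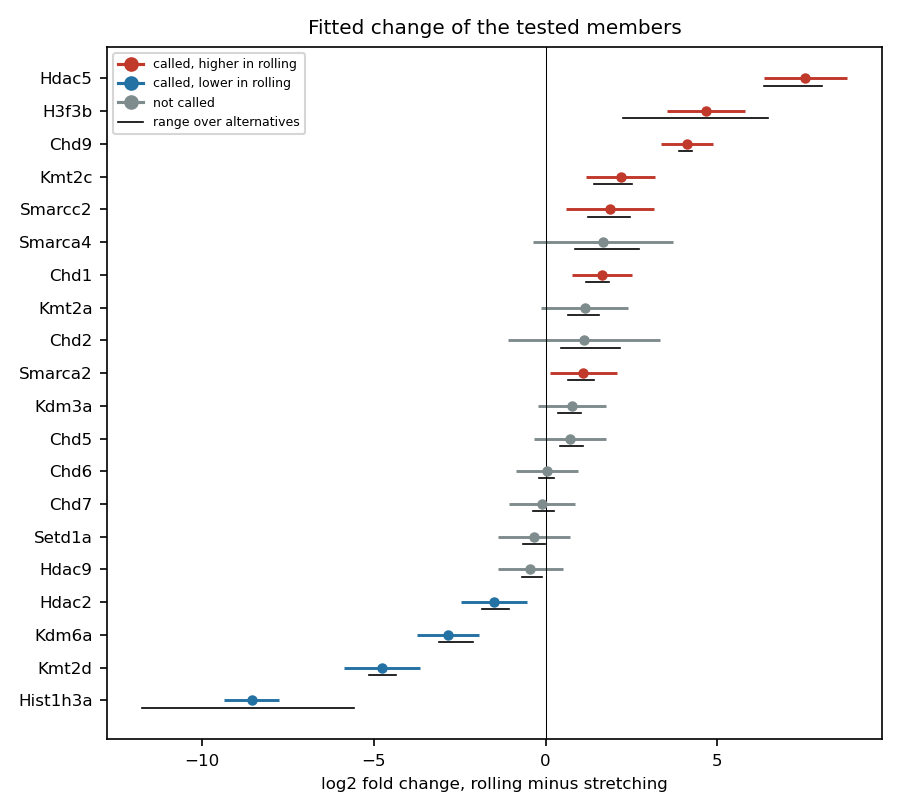
Fitted log2 fold change of the 20 tested members (horizontal axis, rolling minus stretching) with its 95% interval, coloured by call, and below each a thin black line for its range over the alternative settings. The values run from -8.55 for Hist1h3a to 7.57 for Hdac5, and the ranges of both genes stay on one side of 0.

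Partners of these enzymes, taken from 5 lists of other chromatin genes, moved in both directions. Their counts are to be read against the 37.8% of all tested genes that rose and the 37.4% that fell, and many called genes passed the filter through one group only. That was so for 7 of the 9 called acetyltransferases and deacetylase partners, 4 of the 7 called remodelling partners, both called Polycomb and DNA methylation genes, 2 of the 4 called methyltransferases and all 3 called readers. Among acetyltransferases and deacetylase partners, 5 of 11 tested genes rose and 4 fell. Crebbp, an acetyltransferase and coactivator, stood at 642, 258 and 97.8 in rolling and 4.79, 1.13 and 2.22 in stretching, and its paralogue Ep300 rose as well, by 3.01 on the log2 scale (limma, SE 0.56, adjusted p 0.00099). Trrap, a scaffold of acetyltransferase complexes, fell by 2.51 on the log2 scale (limma, SE 0.38, adjusted p 0.00026). Among the remodelling partners 6 of 18 rose and 1 fell. Arid1b, a DNA-binding SWI/SNF subunit, stood at 941, 852 and 1135 against 42.2, 83.8 and 43.2, and Dpf3, a further subunit, at 105, 91.8 and 71.7 against 1.92, 1.13 and 1.11.

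In the list of Polycomb and DNA methylation genes 1 of 7 rose and 1 fell. The riser was Tet1, which oxidises methylcytosine, at 727, 757 and 735 in rolling and 8.62, 7.93 and 3.32 in stretching. Phc3, a Polycomb subunit, fell by 2.03 on the log2 scale (limma, SE 0.43, adjusted p 0.0020). Ezh2, the methyltransferase whose mark Kdm6a removes, overlapped between the groups with 51.7, 138 and 58.7 in rolling and 78.6, 31.7 and 80.9 in stretching. Among other histone methyltransferases 3 of 9 rose and 1 fell, Prdm16 rising by 4.82 (limma, SE 0.70, adjusted p 0.00020) and Whsc1 by 3.49 (limma, SE 0.51, adjusted p 0.00021). Among readers of acetylated and methylated lysine, 3 of 5 fell and none rose, Ing4 by 2.88 and Ing2 by 2.86 on the log2 scale (limma adjusted p 0.00011 and 0.00013).

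Counts of called cell type markers are to be read against the 37.8% of all tested genes that rose and the 37.4% that fell. The filter was passed through one group only by 1 of 4 called muscle, 5 of 7 called neuron and 3 of 6 called gut markers. So it was by all 4 called haemocyte and immune and both called germ line markers. The summed levels in brackets overlap between the groups for gut and germ line. Of 25 muscle markers 7 were tested, 3 rising and 1 falling, with summed levels of 16312 to 70600.3 in rolling and 12029 to 15166 in stretching. Most of these sums lay in 2 genes, Acta1 and Actc1. Actc1, at 2789, 4462 and 30567 in rolling and 7326, 9479 and 6827 in stretching, overlapped and was not called. No read was counted on 7 of the 25, Tnnt1, Tnni1, Tnni2, Tnnc1, Mybpc2, Mylpf and Ckm. Of 24 neuron markers 7 were tested, 4 rising and 3 falling (797 to 1435 against 466 to 630), and none was at 0. The neuron sums lay mostly in Unc13a in rolling (490, 1139 and 650) and in Scn2a1 in stretching (480, 319 and 311). Of 18 gut markers 6 were tested, 2 rising and 4 falling (586 to 1768 against 1391 to 1656), with Prss1, Prss2 and Cela1 at 0. Of 15 haemocyte and immune markers 4 were tested, 1 rising and 3 falling (64.9 to 113 against 264 to 517), and none was at 0. Of 21 germ line markers 2 were tested, 1 rising and 1 falling (117 to 160 against 54.3 to 126), with Nanos2, Nanos3, Prm1, Prm2, Tnp1 and Zp1 at 0. These lists name mouse genes, the labels give no tissue to check them against, and their part in the histone and enzyme values was not tested.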

How the data were processed

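Poly(A) RNA of 3 rolling and 3 stretching samples was measured. Per the submitters' processing notes, BWA, DESeq2 and the mouse build mm10 were used, with no version or role named. For the counting program, annotation and gene lengths nothing is given in the sources used here. A deposited signal value equals a gene's reads over the size factor of its sample. The other deposited columns hold, per the file headers, the authors' mean signal, log2 fold change, standard error, test score, p-value and adjusted p-value. The headings curl and strait were read as rolling and stretching from what the words mean, with the number as replicate.

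Reads were recovered by scaling each sample so that its lowest positive value was 1 read, which made every value whole to within 1e-09. Differences were tested with limma 3.58.1 (R 4.3.3, trend option) on log2(value + 1), two-sided, adjusted by Benjamini-Hochberg over the 2948 genes averaging 10 or more, at a threshold of 0.05. Such fold changes understate the change of low genes. Where one group had few reads, the depth-adjusted read ratio has an exact 95% interval, or a bound from 3 reads over the group; PCR copies are not independent molecules, so both cover counting error only. Class sums were not tested. The code was tested on simulated data.

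Alternatives comprised pseudocounts of 0.5 and 8, no filter and one at a mean of 50, TMM and library-total scaling, edgeR 4.0.16 and DESeq2 1.42.0 on recovered reads, a replicate block, and the omission of each sample. Named by rule were all tested members, those with 30 or more reads in one group beside 3 or fewer in the other, the member of each class with the most reads, and the 2 tested genes of each chromatin list with the smallest adjusted p. Other genes named were picked after their values were seen. The members and lists were chosen with earlier results of these data known.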

Additional observations from a re-analysis of the deposited data

How the results depend on the processing

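The number of called members was 9 to 11 of 20 over the fits that left out 1 sample, where 2076 to 2173 of the 2948 tested genes were called (70.4% to 73.7%). Without a filter it was 29 of 102 (16 higher, 13 lower), where 31.6% of all genes with reads were called. With a minimum mean of 50 it was 4 (2 and 2). These were Hist1h3a, Hdac5, Kmt2d and Chd9, and Chd7 was the only other member at that mean. Over all genes the calls with those filters were 5773 of 18260 (2927 and 2846) and 523 of 600 (270 and 253), since more or fewer genes were tested. With library totals 4 members rose, as Smarcc2, Smarca2 and Chd1 were lost, and the cause was not tested. The median change over all tested genes was 0.097 (log2) as reported, 0.0098 with TMM scaling and -0.064 with library totals. The direction of the uncalled Chd6 turned with TMM scaling (-0.045), library totals (-0.11) and edgeR (-0.087), and its values without 1 sample ran from -0.18 to 0.26; those of Chd7 ran from -0.37 to 0.24. No other tested gene turned, but the overlapping H2A and Setd sums changed sign without 1 sample (log2 ratios up to 0.068 and 0.095). With a pseudocount of 8 the log2 fold changes of Hdac5, Kdm6a and Kmt2c were 6.36, -2.11 and 1.41. The summed levels moved by less than the spread between replicates under all alternatives run for them. No label ties rolling to stretching samples beyond a replicate number. Same-numbered deviations correlated at -0.0066 to 0.021 and differently numbered ones at -0.0335 to 0.024. These values cannot show whether same-numbered samples share an animal or a preparation. With the replicate block 11 members were called, with Smarca4 gained and Smarca2 lost, and 2224 genes in all. Low read numbers limit most histones, sirtuins and Setd genes.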
